A study of Mus musculus with 4 samples.

Results

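The 9 genes described here are *Cd5l* and 8 scavenger receptor genes, *Marco*, *Msr1*, *Cd36*, *Cd163*, *Mrc1*, *Stab1*, *Scarb1* and *Scarb2*, out of 13685 genes listed in at least 1 of the deposited tables. They were picked by symbol, and they were picked with results in view: *Cd5l* because it was lower with Wnt2 than nearly every other gene, and *Marco* because it moved in opposite directions with Wnt2 and with the conditioned medium CAF.CM. Those values are therefore given as a description, and nothing is supported with them. All 9 genes were listed for the control, Wnt2 and CAF.CM libraries, and 8 of 9 for the antibody library, where *Cd163* was not listed.

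Total RNA was sequenced from dendritic cells grown from the bone marrow of C57BL/6 mice aged 4 weeks. Before use, all cells, the controls included, had spent 7 days in IL-4 and GM-CSF (10 ng/ml of each). The groups were control medium, Wnt2 (a secreted Wnt ligand), CAF.CM (culture medium of cells called CAF, an abbreviation commonly used for cancer-associated fibroblasts, which the labels do not spell out) and CAF.CM incubated beforehand with a Wnt2 antibody. The sources used here give neither dose nor duration of any treatment, and none of the 4 groups is a control antibody. Triplicates are mentioned in the series text, yet only 1 library stands for each group, and the sources used here do not say if it pools several cultures.

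With 1 library per group there is no estimate of the spread between cultures and no test. Values are CPM, reads scaled to a common library size, and comparisons are log2 ratios of CPM with a prior count. The prior count was 2 reads on average, scaled to library size, so the deeper library of a comparison received more. The 95% exact binomial intervals therefore cover counting error only. They may understate even that error, since reads without molecular identifiers are not independent molecules. The words higher and lower, used of a count of genes, mean a ratio of at least 2-fold. Depth was uneven: 1 read was worth 0.00706 CPM in the control library, 0.00651 with Wnt2, 0.0384 with CAF.CM and 0.0431 with the antibody, from 143071376, 154399767, 25225220 and 22791494 reads in listed genes. The share of reads in protein-coding genes was 81.2%, 80.1%, 75.8% and 72.4% in the same order, and the part of this difference in the results was not tested.

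Scavenger receptors are a loose group of surface proteins, built from unrelated folds, that bind modified lipoproteins, microbes, dying cells and other polyanionic or damaged material and carry it into the cell. Macrophages use them for clearance and for lipid uptake, and dendritic cells also use several of them to take up antigen. *Cd5l* differs from the rest in that its product, also called AIM, is a secreted protein of tissue macrophages made of the scavenger receptor cysteine-rich (SRCR) domains that also occur in MARCO and CD163. GM-CSF cultures of bone marrow are known to hold macrophage-like cells beside dendritic cells.

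The labelled cell type was checked against marker lists. Of 11 conventional dendritic cell markers 10 were listed, with a summed level of 1567 CPM in the control, 470 with Wnt2, 790 with CAF.CM and 753 with the antibody. *Itgax*, which encodes CD11c, stood at 888 CPM in the control library, 223 with Wnt2, 47.7 with CAF.CM and 30.3 with the antibody, and *Cd209a* was not listed. Some other markers of the list did not follow *Itgax* with CAF.CM. *H2-Ab1* had 489, 71.0, 483 and 521 CPM in the 4 libraries, *Irf4* 91.2, 89.0, 172 and 124, and *Zbtb46* 15.7, 10.3, 17.1 and 21.2. *Ccr7* had 48.5, 37.5, 49.0 and 37.3 CPM and *Batf3* 14.1, 5.21, 12.4 and 9.44. Further below the control with CAF.CM lay *Clec9a*, with 16.5, 29.5, 8.26 and 10.0 CPM, and *Dpp4*, with 2.92, 1.91, 1.04 and 0.259. *Flt3* and *Xcr1*, at 0.699 and 0.961 CPM in the control, were not listed with CAF.CM or the antibody. With Wnt2 3 of 10 dendritic cell markers were lower and 0 higher (median log2 ratio -0.49), and with CAF.CM 2 of 8 were lower and 0 higher (median -0.10). Of 13 resident macrophage markers 8 were listed, with sums of 2155, 1500, 1278 and 903 CPM, while *Vsig4*, *Clec4f*, *Timd4*, *Folr2* and *Lyve1*, which mark tissue-resident macrophages, were not listed. The libraries thus held transcripts of both cell types, and in bulk RNA fewer cells of a type and less RNA per cell cannot be told apart.

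*Cd5l*, on chromosome 3 (GRCm38, 87357881 to 87371073, plus strand, 6 exons), had 40.9 CPM in the control, 0.774 with Wnt2, 3.80 with CAF.CM and 3.27 with the antibody, from 5788, 119, 99 and 76 reads. The control library stood alone at the top, and the Wnt2 library was the lowest. *Marco*, on chromosome 1 (120474538 to 120505024, minus strand, 17 exons), encodes a collagen-like class A receptor for bacteria and inhaled particles. Its level was 10.2 CPM in the control, 0.618 with Wnt2, 35.7 with CAF.CM and 33.8 with the antibody, from 1438, 95, 929 and 784 reads. The Wnt2 library was again the lowest, but here both CAF.CM libraries lay above the control.

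The other 7 genes are placed here on the same build, with the exons of the longest annotated transcript. *Msr1* lies on chromosome 8 (39581685 to 39642673, minus strand, 9 exons) and *Cd163* on chromosome 6 (124304656 to 124330527, plus strand, 17 exons). The class B genes all lie on the minus strand of chromosome 5: *Cd36* at 17781690 to 17888801, *Scarb2* at 92441314 to 92506833 and *Scarb1* at 125277087 to 125341094. *Mrc1* lies on chromosome 2 (14229392 to 14332057, plus strand, 30 exons) and *Stab1* on chromosome 14 (31139013 to 31168641, minus strand, 69 exons). At most 1.05% of the 31-base words in the longest transcript of any of the 9 genes (*Scarb1*) also occurred in the longest transcripts of other genes. Shorter transcripts and the opposite strand were not searched.

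**Figure D1:**
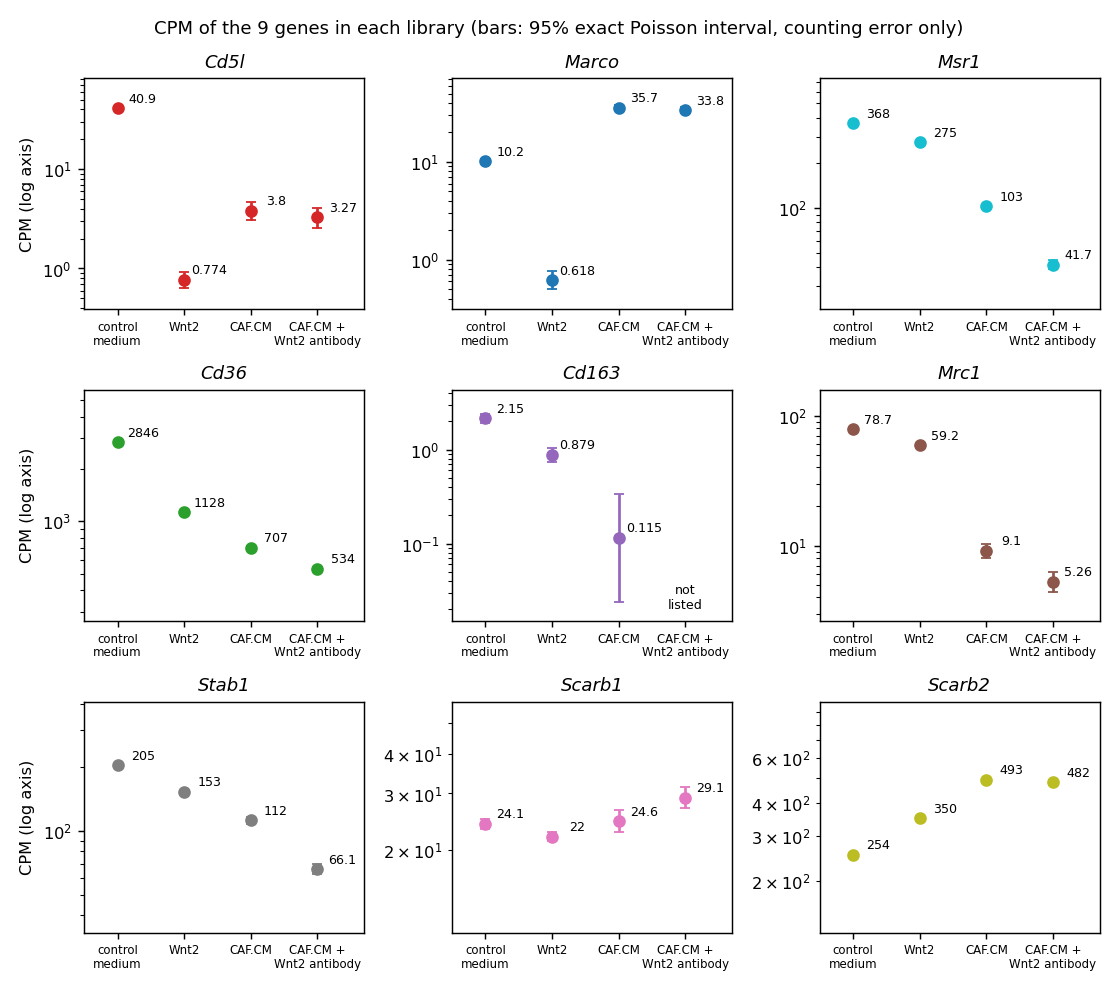
CPM of each of the 9 genes (vertical log axis, different for each gene) in the 4 libraries, with the value beside each point; bars are 95% exact Poisson intervals for counting error. *Cd5l* is highest in control medium, *Marco* is lowest with Wnt2 and highest with CAF.CM, and *Scarb1* stays between 22.0 and 29.1 CPM.

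The stretches of 250 bases before the start sites are shown for *Cd5l* and *Marco*, whose levels parted with CAF.CM, and for *Mrc1*, which was low with CAF.CM as *Cd5l* was. They come from RefSeq on GRCm38.p6, where 7 of the 9 genes were matched. Capitals mark exact matches to a fixed set of motifs on either strand, and positions are counted from the start base as 0 and name the first base of a match. The stretches are chr3:87357631-87357880 (plus strand), chr1:120505025-120505274 (minus strand) and chr2:14229164-14229413 (plus strand).
Cd5l: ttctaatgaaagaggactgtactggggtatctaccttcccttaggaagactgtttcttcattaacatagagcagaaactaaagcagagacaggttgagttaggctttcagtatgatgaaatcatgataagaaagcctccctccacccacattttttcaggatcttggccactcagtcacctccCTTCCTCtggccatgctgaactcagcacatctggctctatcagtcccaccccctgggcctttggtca
Marco: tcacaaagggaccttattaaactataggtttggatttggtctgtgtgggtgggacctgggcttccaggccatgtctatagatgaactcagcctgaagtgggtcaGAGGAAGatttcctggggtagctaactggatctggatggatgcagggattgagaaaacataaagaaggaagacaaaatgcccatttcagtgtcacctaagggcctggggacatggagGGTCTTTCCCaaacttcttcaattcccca
Mrc1: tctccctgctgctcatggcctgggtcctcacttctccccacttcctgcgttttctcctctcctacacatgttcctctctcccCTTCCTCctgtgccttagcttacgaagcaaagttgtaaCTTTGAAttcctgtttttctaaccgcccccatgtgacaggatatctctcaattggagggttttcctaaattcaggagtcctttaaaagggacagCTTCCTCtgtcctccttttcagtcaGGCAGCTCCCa

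All 3 stretches hold the PU.1 motif GAGGAAG, which reads CTTCCTC on the other strand, at position -67 in *Cd5l*, at -146 in *Marco* and at -168 and -36 in *Mrc1*. PU.1 is the lineage factor of macrophages and dendritic cells. Of 32851 promoters with a window of the same length, 300 bases, 13.6% hold this motif, and 3 of the 7 matched genes do. The *Marco* stretch also holds the NF-kB motif (GGGA and CC with any 4 bases between) at -29, and the *Mrc1* stretch holds it at -11. This motif occurs in 20.7% of promoters and in 5 of the 7. One of the TCF motifs CTTTGAA and CTTTGTT, through which Wnt signalling by beta-catenin is known to act, lies at -130 in *Mrc1*. *Cd36* also holds a TCF match, *Cd5l* and *Marco* hold none in this window, and 10.6% of promoters do. The matches printed do not overlap each other.

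In the same windows the AP-1 motif TGANTCA was found in 0 of the 7 genes (7.81% of all promoters), the interferon element (GAAA and GAAA with any 2 bases between) in 0 (3.44%), the GAS motif TTCNNNGAA in 0 (8.30%) and the E-box CACGTG in 0 (7.15%). The MAF half-site motif TGCTGAC was found in 0 of 7 (4.67%), and the LXR element (AGGTCA repeated after any 4 bases) in 0 of 7 (0.0152%). The NRF2 element TGACNNNGC was found in *Scarb2* alone of the 7 (12.4%). The absence of a match says only that these letters are not in this window. *Cd5l* and *Marco* had 0 CpG dinucleotides in the 300 bases, as 5.43% of promoters did, while *Scarb2* had 28 and the median promoter 7.

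Wnt2 was first set against control medium. Here *Cd5l* was 51.9-fold lower with Wnt2 (log2 ratio -5.70, interval -6.00 to -5.46), which left 1.93% of the control level. *Marco* was 16.1-fold lower (-4.01, -4.35 to -3.74). *Cd36*, whose product binds long-chain fatty acids and oxidised lipoproteins, was 2.52-fold lower (-1.34, -1.34 to -1.33), and *Cd163*, the receptor for haemoglobin bound to haptoglobin, had a log2 ratio of -1.28 (-1.59 to -0.99). The other 5 genes stayed within 2-fold.

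*Cd5l* ranked 2 from the lowest of 13120 genes in the Wnt2 comparison and *Marco* ranked 4. Just below *Cd5l* was *Gm28037*, a processed transcript with 223 reads in the control library and 0 with Wnt2, and just above it was *Clec12a*, a myeloid inhibitory lectin receptor, at -5.19 (15170 and 448 reads). Among the 9 genes 4 were lower and 0 higher, against a background of 2.93% of all genes lower and 2.87% higher. The rule that picked the genes used this contrast, so nothing is read from that count. At the lower 2-fold line the genes just past it were *Cd163* (-1.28) and *Cd36* (-1.34), and the nearest ones within it were *Msr1* and *Stab1* (both -0.42). At the upper line none was past it, and *Scarb2* (0.46) was nearest.

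*Msr1*, the class A receptor for modified low-density lipoprotein, *Mrc1*, the mannose receptor CD206, and *Stab1*, a large clearance receptor also known as stabilin-1, were close together. Their log2 ratios with Wnt2 were -0.42, -0.41 and -0.42, and their counting intervals overlapped each other. *Scarb1*, the receptor for high-density lipoprotein, stood at -0.13 (-0.20 to -0.06). *Scarb2*, which encodes the lysosomal membrane protein LIMP-2, was the only one of the 9 above 0, at 0.46 (0.44 to 0.48).

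The authors' deposited table gives adjusted p-values of 4.07e-98 for *Cd5l*, 1.12e-51 for *Marco*, 4.98e-09 for *Cd36* and 7.63e-06 for *Cd163* in this comparison. For the other 5 genes the authors' deposited table gives adjusted p-values between 0.119 and 0.80. In all, 4 of the 9 genes and 15.4% of genes in the authors' deposited table have an adjusted p-value below 0.05. The sources used here do not give the spread that those p-values assume.

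**Figure D2:**
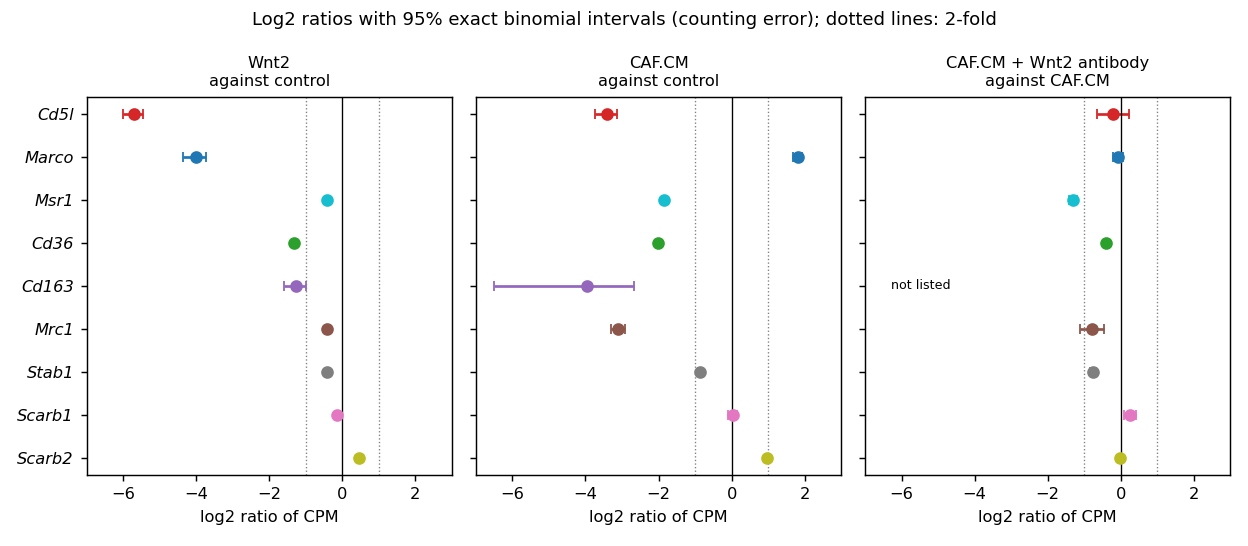
Log2 ratio of CPM (horizontal axis) of the 9 genes in the 3 deposited comparisons, with 95% exact binomial intervals for counting error; dotted lines mark 2-fold. *Cd5l* lies far left with Wnt2 and with CAF.CM, *Marco* changes side between them, and with the antibody only *Msr1* lies past the 2-fold line.

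CAF.CM against control medium uses the same control library, so the values are set side by side with those for Wnt2 and no likeness is drawn from them. *Cd5l* was 10.7-fold lower with CAF.CM (log2 ratio -3.42, -3.73 to -3.14). *Marco* was 3.51-fold higher (1.81, 1.69 to 1.93), at rank 333 from the highest of 13329 genes. Of the 9 genes 5 were lower and 1 was higher, while 8.69% of all genes were lower and 6.68% higher. The choice of *Marco* used this contrast too. The median log2 ratio of the 9 genes was -1.84 and that of all genes -0.04.

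*Msr1* had 368 CPM in the control, 275 with Wnt2, 103 with CAF.CM and 41.7 with the antibody. Against control it was 3.59-fold lower with CAF.CM (-1.84, -1.90 to -1.79). *Msr1* thus descended through all 4 libraries in that order, without overlap of the counting intervals.

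*Cd36* descended in the same order, with 2846, 1128, 707 and 534 CPM. With CAF.CM it was 4.03-fold lower than in control medium (-2.01, -2.03 to -1.99). It rested on more reads than any of the other 8 genes in every library, from 402841 in the control to 12391 with the antibody.

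*Mrc1* had 78.7 CPM in control medium and 59.2 with Wnt2, but 9.10 with CAF.CM and 5.26 with the antibody. The ratio of CAF.CM to control was -3.11 (-3.30 to -2.93), or 8.63-fold lower. The control and Wnt2 libraries were near each other, and both CAF.CM libraries lay far below them. *Cd163* was at the edge of detection: 2.15 CPM from 304 reads in control medium, 0.879 CPM from 135 reads with Wnt2 and 0.115 CPM from 3 reads with CAF.CM, for a log2 ratio of -3.96 with an interval of -6.51 to -2.66. It was not listed in the antibody table, which holds only genes near or above 1 CPM in at least 1 of its libraries.

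*Stab1* had 205 CPM in the control, 153 with Wnt2, 112 with CAF.CM and 66.1 with the antibody, and with CAF.CM it stayed within 2-fold of the control (-0.87, -0.92 to -0.81). Some of its 69 exons overlap *Nt5dc2* on the opposite strand, and no source used here says if strand was used in counting. *Nt5dc2* had 9.86, 11.9, 5.30 and 5.34 CPM in the 4 libraries, far below *Stab1* in each.

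The lysosomal and the lipoprotein receptor of class B did not fall below control medium with CAF.CM, and neither did *Marco*. *Scarb1* had 24.1 CPM in the control, 22.0 with Wnt2, 24.6 with CAF.CM and 29.1 with the antibody. Its ratio of CAF.CM to control was 0.028 with an interval of -0.10 to 0.15, which includes 0. *Scarb2* had 254, 350, 493 and 482 CPM, so that all 3 treated libraries lay above the control. Its ratio with CAF.CM was 0.96 (0.93 to 0.99), just within 2-fold. That side of the line depends on the scaling, and DESeq2 size factors put it at 1.00, just past 2-fold.

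For CAF.CM against control, the authors' deposited table has adjusted p-values below 0.05 for 8 of the 9 genes and for 32.6% of its genes. *Scarb1* is the exception, with an adjusted p-value of 0.938 in the authors' deposited table.

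**Figure D3:**
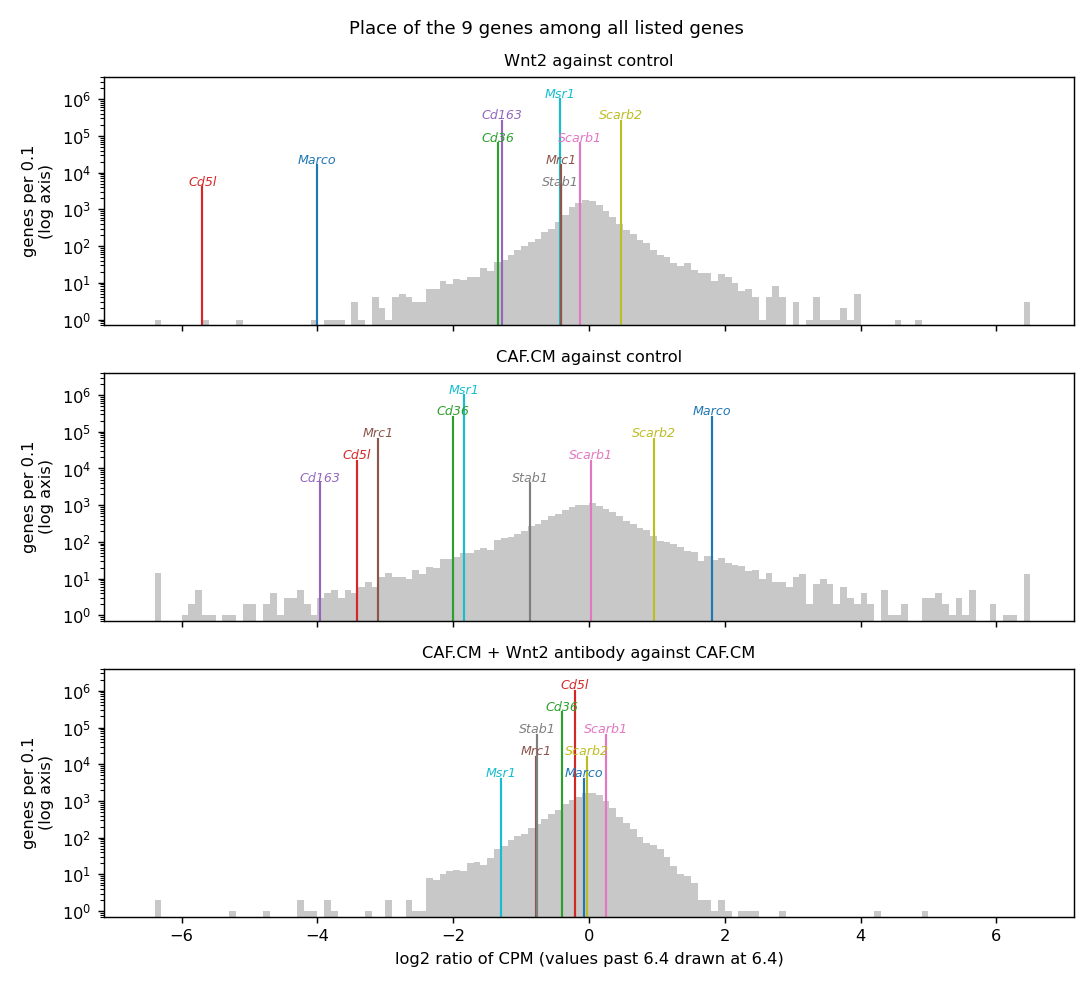
Number of genes (log axis) by log2 ratio of CPM in the 3 deposited comparisons, in bins of 0.1 (grey), with the 9 genes as coloured lines whose height carries no value. With Wnt2 *Cd5l* and *Marco* lie at the far left edge, and with the antibody most of the 8 listed genes lie in the bulk.

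The antibody group was compared with CAF.CM alone, which was its own medium without antibody. *Msr1* was 2.46-fold lower with the antibody (log2 ratio -1.30, -1.41 to -1.19). It was the 1 of 8 listed genes past 2-fold, and 0 were higher, against 3.65% of all genes lower and 1.02% higher. *Cd5l* (-0.21, -0.67 to 0.23) and *Marco* (-0.08, -0.22 to 0.06) had intervals that include 0. For *Cd5l*, with 99 and 76 reads, the interval reaches from 1.59-fold lower to 1.17-fold higher, so a smaller difference was not detectable at this depth.

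Between those genes and *Msr1* lay *Mrc1* (-0.78, -1.12 to -0.47), *Stab1* (-0.76, -0.85 to -0.67) and *Cd36* (-0.40, -0.44 to -0.37). All 3 were lower with the antibody beyond counting error and within 2-fold. *Scarb1* was the only gene above 0, at 0.24 (0.09 to 0.40), and *Scarb2* was at -0.033 (-0.07 to 0.00), a sign that turned to 0.0048 with DESeq2 size factors or edgeR scaling. The authors' deposited table gives adjusted p-values of 1.93e-07 for *Msr1*, 0.00746 for *Stab1* and 0.0363 for *Mrc1*. Those are 3 of 8 genes with an adjusted p-value below 0.05, and 6.98% of genes in the authors' deposited table have one.

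Against control medium, for which no deposited table of its own was used, the antibody library had *Cd5l* at -3.63, *Mrc1* at -3.90, *Msr1* at -3.14, *Cd36* at -2.41 and *Stab1* at -1.63. Together these were 5 of 8 lower, where 12.6% of 12882 genes were lower. *Marco* stood at 1.73 and was the 1 gene higher, where 8.10% of all genes were. With the antibody, the *Cd5l* and *Marco* levels were nearer to those with CAF.CM alone than to control medium. Both genes were picked for ratios against this same control library, so nothing is read from that or from these counts.

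CAF.CM was also set directly against Wnt2, over 12988 genes. *Marco* was 55.7-fold higher with CAF.CM (5.80, 5.54 to 6.17), the fifth highest ratio of all, at rank 5. *Cd5l* was 4.80-fold higher (2.26, 1.90 to 2.69). These were 2 of 9 genes higher, against 4.31% of all genes. Both genes were picked with their Wnt2 values in view, so nothing is read from that count or from the rank of *Marco*. The 3 genes lower were *Cd163* (-2.71, -5.23 to -1.35), *Mrc1* (-2.70, -2.89 to -2.52) and *Msr1* (-1.42, -1.48 to -1.37), against 6.46% of all genes.

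Levels of different genes were compared per kilobase of the longest annotated transcript. In control medium *Cd36* led with 837 CPM per kb, followed by *Msr1* with 101, *Scarb2* with 54.0, *Stab1* with 25.6, *Cd5l* with 20.1 and *Mrc1* with 14.7. *Scarb1* (7.79), *Marco* (5.28) and *Cd163* (0.483) came last. *Cd5l* was thus the fifth of the 9 genes in control medium. With Wnt2 it stood among the last 3 of the 9, at 0.380 CPM per kb, beside *Marco* at 0.321.

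With CAF.CM the order was *Cd36* (208 CPM per kb), *Scarb2* (105), *Msr1* (28.2), *Marco* (18.5), *Stab1* (14), *Scarb1* (7.95), *Cd5l* (1.87), *Mrc1* (1.69) and *Cd163*. *Marco* had moved up to the fourth place. With the antibody it stood in the third, at 17.6 CPM per kb, above *Msr1* at 11.5, behind *Cd36* (157) and *Scarb2* (103). *Cd36* made up 78.5% of the summed CPM per kb of the listed genes in the control, 63.8% with Wnt2, 54.0% with CAF.CM and 50.8% with the antibody. The share of *Scarb2* was 5.07%, 14.3%, 27.3% and 33.2% in the same order.

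**Figure D4:**
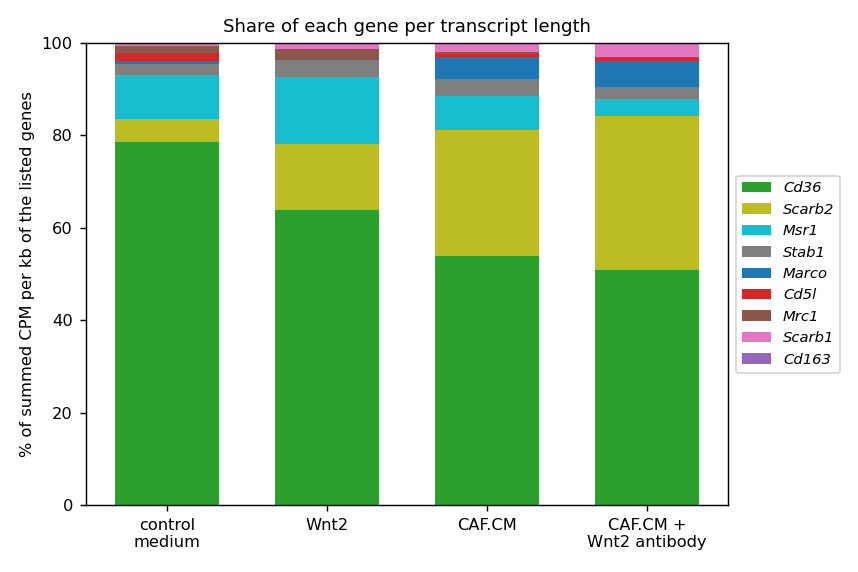
Share of each gene in the summed CPM per kb of the listed genes (vertical axis, percent) in each of the 4 libraries. *Cd36* takes 78.5% in control medium and 50.8% with the antibody, and *Scarb2* takes 5.07% and 33.2%.

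Ratios between 2 genes of the same library do not depend on how the libraries were scaled. *Marco* stood at 5.21% of *Msr1* per kb in control medium (4.94% to 5.49%) and at 0.425% with Wnt2 (0.343% to 0.519%). With CAF.CM the value was 65.7% (61.0% to 70.9%), and with the antibody 153% (139% to 168%). *Marco* was picked for its ratios in these libraries, so the proportions are a description only.

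*Cd5l* was 3.81 times *Marco* per kb in the control, 1.18 times with Wnt2 (0.897 to 1.57), 0.101 times with CAF.CM and 0.0917 times with the antibody. With Wnt2 the interval includes equal levels. *Stab1* was 1.75 times *Mrc1* in control medium and 1.74 times with Wnt2, with overlapping intervals (1.71 to 1.79 and 1.69 to 1.78). With CAF.CM the same ratio was 8.29 (7.26 to 9.50), and with the antibody 8.45 (7.02 to 10.2). The pair therefore separated in the CAF.CM libraries and not with Wnt2, as far as counting error allows.

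In class B, *Cd36* was 15.5 times *Scarb2* per kb in the control, 4.45 times with Wnt2, 1.98 times with CAF.CM and 1.53 times with the antibody. *Scarb2* was 6.94, 10.5, 13.2 and 10.9 times *Scarb1* in the same order. The *Scarb1* length used here, 3.093 kb, is that of a transcript with 2 exons that is not annotated as protein-coding. The longest protein-coding transcript of *Scarb1* has 2.521 kb and 13 exons. By that length *Scarb1* had 9.56 CPM per kb in the control, so the ratios of *Scarb2* to it would be smaller. *Cd36* was 8.27 times *Msr1* in the control, 4.39 times with Wnt2, 7.38 times with CAF.CM and 13.7 times with the antibody. The ratio of *Cd36* to *Scarb2* was thus lower in every treated library than in the control, while that of *Cd36* to *Msr1* was lowest with Wnt2.

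Likeness between genes was measured as the Euclidean distance between their log2 ratios in the 3 deposited comparisons, over 10618 protein-coding genes. Both ratios against control share that library, so the distances describe these libraries only. The genes nearest to *Cd5l* were *Clec12a* (distance 2.07) and *Lpl* (2.15), and those nearest to *Marco* were *H2-Ab1* (2.21) and *H2-Eb1* (2.27). *H2-Ab1* and *H2-Eb1* encode chains of the class II molecules that present antigen, and *Lpl* encodes lipoprotein lipase. As both genes were picked for these ratios, nothing is read from their distances. *Msr1* lay 0.131 from *Lbp*, *Cd36* 0.129 from *Degs2*, *Mrc1* 0.317 from *Cd200r3*, *Stab1* 0.0588 from *Ak3*, *Scarb1* 0.0145 from *Raver2* and *Scarb2* 0.0758 from *Hdac7*. For *Cd163*, with 2 ratios over 10917 genes, *Olfr112* was nearest, at 0.205. With CAF.CM *Cd163* had only 3 reads and *Olfr112* 0.077 CPM, so no likeness is drawn from that distance. Within the set, *Msr1* and *Stab1* were closest (1.11), next *Scarb1* and *Scarb2* (1.14), and *Cd5l* and *Scarb2* were farthest apart (7.56).

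Other genes of related pathways were taken from lists, and are described by counts beside the shares of all genes given above. Of 16 other scavenger receptors 11 were listed with Wnt2, and 1 was lower and 0 higher, with a median of -0.22. The lower one was *Scara3*, a class A family member, at -1.38. With CAF.CM 4 of 11 were lower, with a median of -0.77: *Scara3* (-3.43, from 384 and 6 reads), *Colec12* (-2.92), *Clec7a* (-2.18) and *Lrp1* (-1.45). *Clec7a* encodes dectin-1, a receptor for fungal glucans, and *Lrp1* a large endocytic receptor. With the antibody against CAF.CM 1 of 10 was lower, *Colec12* at -1.15 from 50 and 19 reads, named after its value was seen because the count is 1.

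Of 10 other genes for SRCR proteins 3 were listed with CAF.CM, and 2 of those were higher. *Lgals3bp*, a secreted galectin-binding protein, stood at -0.72 with Wnt2 and at 1.24 with CAF.CM, and *Loxl2*, from 48 and 29 reads and named after its value was seen, at 1.65. With Wnt2, 2 were listed and 0 passed 2-fold in either direction, and with the antibody 0 of 3 did. Of 3 relatives of the mannose receptor only *Ly75* was listed, at -0.28 with Wnt2, 0.35 with CAF.CM and -0.37 with the antibody, while *Mrc1* had -0.41, -3.11 and -0.78.

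*Cd5l* is known as a target of the LXR nuclear receptors and *Cd36* of PPARgamma. Of 14 genes of the LXR and PPARgamma programme all 14 were listed, and with Wnt2 5 were lower and 1 was higher, with a median of -0.08. *Lpl* stood at -3.85, *Pparg* itself at -2.84, the fatty acid carrier *Fabp4* at -2.67 and *Angptl4*, an inhibitor of lipoprotein lipase, at 1.77. *Nr1h3*, which encodes LXRalpha and was singled out after its value was seen, stood at -1.38, from 435 and 180 reads.

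With CAF.CM 5 of 14 genes of that programme were lower and 0 higher, with a median of -0.83. *Apoe*, a lipid carrier, stood at -3.30, *Pparg* at -2.55, *Angptl4* at -2.45 and *Lpl* at -2.34. *Lpl* and *Pparg* were thus lower with either treatment, whereas *Apoe* was at 0.07 with Wnt2, *Fabp4* at -0.43 with CAF.CM, and *Angptl4* changed side between the treatments. With the antibody 1 of 12 was lower, *Nr1h3* at -1.12 from 56 and 22 reads, with a list median of -0.38.

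Of 21 genes for the uptake of apoptotic cells 17 were listed. With Wnt2 5 of 17 were lower and 0 higher (median -0.66), with CAF.CM 10 were lower and 1 higher (median -1.49), and with the antibody 4 were lower and 0 higher (median -0.65). The complement subunit genes *C1qa*, *C1qb* and *C1qc* stood at -1.69, -1.90 and -2.10 with Wnt2 and at -3.42, -3.88 and -3.83 with CAF.CM. With the antibody *C1qb* stood at -1.47 and *C1qc* at -1.50. *Gas6*, a bridging ligand for the receptors of the TAM family, stood at -1.55 with Wnt2.

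Among 12 genes of haem and iron handling, the process that CD163 serves, 11 were listed with Wnt2, and 2 were lower and 0 higher, with a median of -0.45. These were *Cp*, encoding the ferroxidase ceruloplasmin, at -1.80, and *Hp*, encoding haptoglobin, at -1.30. With CAF.CM 2 of 11 were lower and 1 was higher, with a median of 0.25. *Hmox1*, encoding the haem-degrading enzyme, stood at 2.22 and the iron exporter *Slc40a1* at -1.24, and *Slco2b1* was at -4.73 with only 2 reads in the CAF.CM library (interval -8.16 to -3.25). With the antibody 2 of 10 were lower, *Cp* at -1.15 and *Hp* at -1.04.

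Of 14 macrophage transcription factors 12 were listed with Wnt2 and 1 was lower, *Mitf* at -1.21, with 0 higher and a median of -0.09. With CAF.CM 4 of 13 were lower and 2 higher, with a median of -0.66, and among the lower ones were *Mitf* (-1.60), *Cebpa* (-1.39), a factor of myeloid differentiation, and *Klf4* (-1.22), a factor of monocytes. With the antibody the list had a median of -0.33.

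Around *Scarb2*, a list of 9 lysosomal genes had 0 past 2-fold in either direction with Wnt2 (median -0.26). With CAF.CM 1 was higher, *Npc2* at 1.71, and 2 were lower, *Tfeb* (-1.38) and *Cd63* (-1.23), with a median of -0.37. With the antibody 0 of 9 passed 2-fold, with a median of 0.03.

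Receptors of the LDL family and their partners, 7 of 8 listed, had 1 higher and 0 lower with Wnt2 (median 0.23), 1 higher and 1 lower with CAF.CM (0.18) and 1 higher and 0 lower with the antibody (0.32). *Vldlr* stood at 1.07 with Wnt2, and *Lrp8* at 2.20 with CAF.CM and at 1.12 with the antibody. Of 8 NRF2 targets, which respond to oxidants, 1 was higher and 0 lower with Wnt2 (*Osgin1*, 1.52; median -0.12). With CAF.CM 1 was higher, *Hmox1*, and 2 were lower, *Nqo1* (-1.12) and *Srxn1* (-1.06), with a median of -0.16, and with the antibody 0 of 8 passed (median 0.28).

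**Figure D5:**
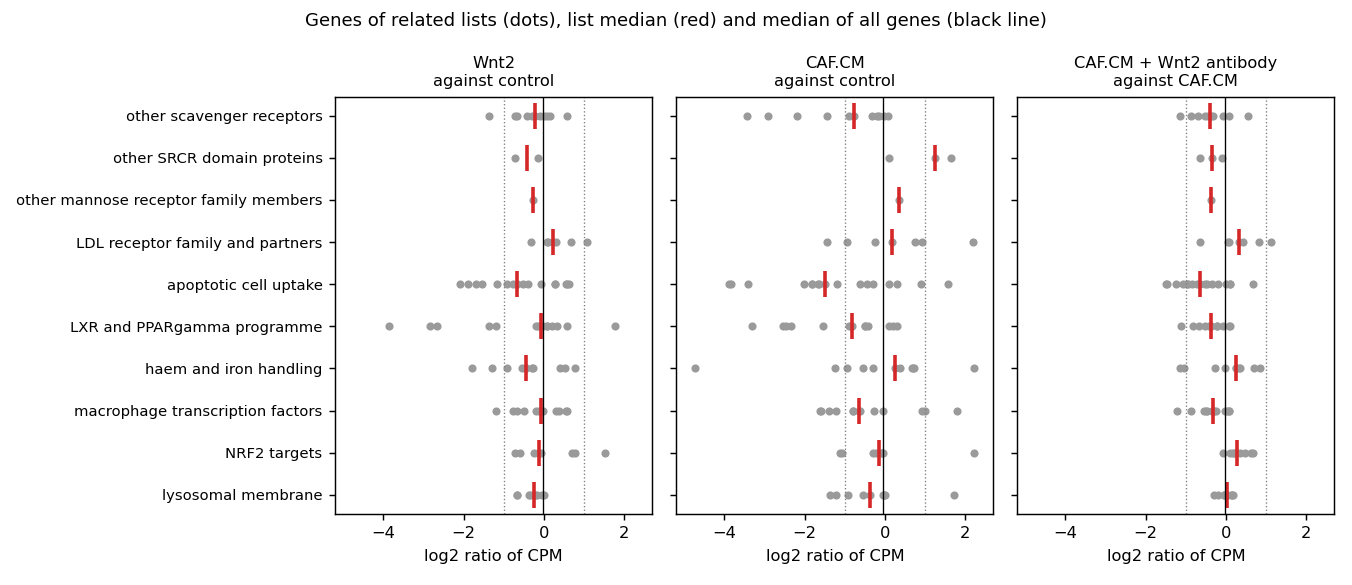
Log2 ratio of CPM of each listed gene (dots) in 10 lists related to the 9 genes, for the 3 deposited comparisons; red ticks are list medians, the black line is the median of all genes and dotted lines mark 2-fold. Apoptotic cell uptake has a median of -0.66 with Wnt2, -1.49 with CAF.CM and -0.65 with the antibody, left of the median of all genes in each panel.

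Markers of other cell types moved with the libraries as well. Of the 8 listed resident macrophage markers 5 were lower with Wnt2, 6 with CAF.CM and 4 with the antibody, and 0 were higher in these 3 comparisons. *Csf1r*, the receptor of the macrophage growth factor, stood within 2-fold in each, at -0.04, -0.50 and -0.55. *Adgre1*, encoding F4/80, was at -1.05 with Wnt2 and at 0.21 with CAF.CM. The part of these macrophage transcripts in the *Cd5l*, *Msr1*, *Cd36* and *Mrc1* results was not tested.

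The 6 monocyte markers summed to 1090, 1869, 1167 and 1046 CPM in control medium, Wnt2, CAF.CM and the antibody library. Single markers moved in opposite directions within that sum: *Ccr2* had 580.4, 315, 18.8 and 3.97 CPM, *Vcan* 35.3, 560.3, 41.8 and 17.2, and *Cd14* 405, 899, 988 and 959. With Wnt2 2 of the 6 were higher and 1 lower, and with CAF.CM 2 were higher and 2 lower. Of 10 neutrophil markers 3 were listed, with sums of 549, 1503, 144 and 102 CPM. Nearly all of it was *Mmp8* (544, 1489, 140.1 and 99.3 CPM), with *S100a8* at 4.64, 11.8, 4.11 and 2.54 CPM, and the granule genes *Ngp*, *Camp*, *Ltf*, *Elane* and *Mpo* were not listed. Platelets carry CD36: 3 of 5 platelet markers were listed, at 237, 391, 64.9 and 56.0 CPM, while *Gp9* and *Gp1bb* were not. Most of that sum was *Pf4*, at 198, 339, 57.6 and 50.6 CPM.

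Endothelial cells are known to express *Stab1* and *Cd36*, and 3 of 8 endothelial markers were listed, at 35.1, 42.3, 62.3 and 61.3 CPM, with *Cdh5*, *Tek* and *Stab2* not listed. Of 8 fibroblast markers 5 were listed, at 9.13, 7.87, 14.2 and 15.9 CPM, without *Col1a1*, *Lum* and *Pdgfra*. Within that sum *Dcn* had 0.509, 1.01, 10.7 and 13.9 CPM. *Postn* went the other way, with 4.51, 1.22 and 0.691 CPM in control medium, Wnt2 and CAF.CM, and was not listed with the antibody. Adipocytes express *Cd36* too, and 0 of 5 adipocyte markers were listed. Of 7 T and B cell markers 1 was listed, between 0.730 and 1.22 CPM in the 3 libraries that had it. The part of the monocyte, neutrophil, platelet, endothelial and fibroblast transcripts in the results was not tested.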

How the data were processed

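The authors deposited 3 tables of normalized CPM per gene, 1 for each comparison, with log2 fold changes, p-values and adjusted p-values, per the file headers. Per the submitters' processing notes, the tools were STAR (2.4.2a), RSEM (1.2.29) and edgeR, and the builds mm10 and GRCm38.p5. Settings and the use of strand: not given in the sources used here. Ribosomal RNA had been removed and stranded libraries made from 1 ug of total RNA, per the labels' protocols. Each table lists only genes near or above 1 CPM in at least 1 of its libraries. Every deposited per-sample column was used.

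Each library's CPM values were whole multiples of 1 step, so whole reads were recovered (100% of values within 0.1 step in every library). Expected counts had been assumed in the plan. Log2 ratios used edgeR 4.0.16 in R 4.3.3 with a prior count of 2 and the deposited scaling, over all genes of each table. DESeq2 1.42.0, other scalings, prior counts of 0.5 and 5, a minimum of 100 reads, and 1.5-fold and 3-fold limits were alternatives. Intervals are exact binomial at 95% (Python 3.11.15, scipy 1.17.1), and the reading of the CPM steps was tested on simulated data. Lengths and coordinates are from GENCODE M21.

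The 9 genes and all lists were chosen with earlier results of these data known. From each list the text names up to 4 genes per comparison with the largest ratio among those with at least 200 reads in both libraries together, and the nearest of 5 neighbours per gene. Some genes of the lists are not reported here by name. Replicate spread could not be estimated from 1 library per group.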

Additional observations from a re-analysis of the deposited data

How the results depend on the processing

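Of 106 settings tried for the counts of genes past 2-fold, 97 left the count within 1.5 times its value, and of 284 settings for the single ratios 278 kept direction and side of the 2-fold line. With the 3-fold limit, 2 genes were lower with Wnt2 (not 4) and 0 with the antibody against CAF.CM (not 1). With the 1.5-fold limit, 3 were lower with the antibody against CAF.CM. The count of genes higher with CAF.CM was 2, not 1, with DESeq2 size factors, edgeR scaling, total reads and the 1.5-fold limit, because *Scarb2* passed (1.00, 1.00 and 1.02 for the scalings). The count higher with the antibody against control was 2, not 1, with edgeR scaling (*Scarb2* at 1.01) and the 1.5-fold limit. *Scarb2* in the antibody library against CAF.CM changed sign, to 0.0048 with DESeq2 size factors and 0.0048 with edgeR scaling. With the longest protein-coding transcript as length, *Scarb1* (11.6 CPM per kb) stood above *Msr1* (11.5) in the antibody library. No paired analysis was possible because each group has 1 library and the labels carry no replicate numbers, and leaving out a library was not possible for the same reason. Depth limits *Cd163* (3 reads with CAF.CM) and *Cd5l* in the antibody comparison most.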

Other observations

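Of the 9 genes, 5 carry the gene ontology term for scavenger receptor activity in the deposited annotation (*Cd5l*, *Marco*, *Msr1*, *Cd163* and *Stab1*), and 13 other listed genes carry it. This group was formed after the values were seen. With Wnt2 1 of the 9 listed others was higher and 0 lower. The higher one was *Ackr3*, an atypical chemokine receptor that scavenges its ligands, at 4.60. With CAF.CM 5 of 11 were higher and 1 lower, among them *Susd2* at 6.29, *Ackr3* at 1.80 and *Lgals3bp* at 1.24 on the higher side and *Enpp1* at -1.52 as the lower one. With the antibody against CAF.CM 0 of 11 passed 2-fold, and *Scarf1*, a scavenger receptor of class F, was at -0.70.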
